A study of Mus musculus with 28 samples.

Results

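Small RNA-seq of alveolar macrophages (AM) from male SP-A knockout (KO) mice was compared between ozone (O3) and filtered air (FA). All 3 libraries titled as KO males after O3 and all 3 titled as KO males after FA were used, which makes 6 of the 28 libraries of the series, and every one of the 565 miRNAs listed for them was considered. The comparison was also run without FA replicate 3, because that library stood apart from the other 5. The series holds AM from mice of both sexes that lack surfactant protein A (SP-A), a lung collectin, and from co-ex mice, transgenic for the human variants SP-A1 (6A2) and SP-A2 (1A0) on the same KO background, so no mouse in the series makes its own SP-A. The KO males were 12 weeks old, breathed FA or O3 for 3 h and were lavaged after 4 h of recovery. The labels give 4 exposed animals per group and 3 KO libraries, and do not say how libraries map to animals, so the p-values measure the spread between these libraries. SP-A is a protein-coding gene and its loss could not be checked in miRNA reads.

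miRNAs are short RNAs that lower the translation and stability of mRNAs, which they find mainly through the seed, bases 2 to 8 from the 5′ end. Different cell types carry different sets. The miR-200 family, miR-34b/c and miR-375 are known from epithelium, miR-223, miR-142 and miR-511 from myeloid cells, miR-126a from endothelium, and miR-143 and miR-145a from smooth muscle and fibroblasts. AM are the resident phagocytes of the alveoli and are collected by lavage, and O3 is an oxidant that injures the airway lining.

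The mature sequences of the miRNAs on which the results turn are given first, from RefSeq with GRCm38.p6 coordinates, with the seed in capitals. These 4 were called higher after O3 with all 6 libraries:
miR-6538: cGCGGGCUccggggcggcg
miR-2137: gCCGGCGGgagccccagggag
miR-5126: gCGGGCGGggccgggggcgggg
miR-34b-3p: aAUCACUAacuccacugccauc
miR-6538 lies at chr12:26414970-26414988, minus strand, in an intron of Rnf144a, and miR-2137 at chrX:72992113-72992133, plus strand, in an intron of Zfp185. miR-5126 (chr1:84695890-84695911, plus strand) and miR-34b-3p (chr9:51103574-51103595, minus strand) lie outside annotated host genes on their strand. G and C made up 94.7% of miR-6538, 85.7% of miR-2137, 100% of miR-5126 and 45.5% of miR-34b-3p, against a median of 50% over the 411 tested miRNAs found in RefSeq. Without FA replicate 3, 3 of the 16 tested miRNAs with at least 70% G and C were called higher (18.8%), beside 13.8% of all tested. The median over the 53 higher miRNAs found in RefSeq was 45.5%.

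The next 5 were called higher only when FA replicate 3 was left out, and they fall into one group of 3 and another of 2 by seed:
miR-200b-3p: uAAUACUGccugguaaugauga
miR-200c-3p: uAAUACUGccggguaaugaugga
miR-429-3p: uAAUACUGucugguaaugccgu
miR-200a-3p: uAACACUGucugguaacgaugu
miR-141-3p: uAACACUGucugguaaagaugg
miR-200b-3p (chr4:156055685-156055706, minus strand), miR-200a-3p (chr4:156054911-156054932, minus strand) and miR-429-3p (chr4:156053916-156053937, minus strand) lie together in an intron of Ttll10. The other pair lies on chromosome 6, miR-200c-3p at chr6:124718324-124718346, minus strand and miR-141-3p at chr6:124717917-124717938, minus strand.

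3 further sets are shown because a called miRNA shares its seed or its first bases with another. They are miR-1961 beside let-7 members, miR-3473e beside miR-3473b, and miR-92b-3p beside miR-92a-3p:
miR-1961: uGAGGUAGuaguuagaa
let-7g-5p: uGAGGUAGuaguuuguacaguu
let-7c-5p: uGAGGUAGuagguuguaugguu
let-7b-5p: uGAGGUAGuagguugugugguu
miR-3473e: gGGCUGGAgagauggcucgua
miR-3473b: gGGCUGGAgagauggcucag
miR-92b-3p: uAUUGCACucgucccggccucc
miR-92a-3p: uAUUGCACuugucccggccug

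The libraries held 919150 to 2082034 reads on miRNAs (FA 981552 to 1787051, O3 919150 to 2082034), in a series that ranged from 41542 to 2082034. The deposited values are reads divided by a size factor for each library, and 3 reads were worth 1.69 to 4.48 units. FA replicate 3 carries a library code outside the consecutive codes of the other 5, and the labels do not say what the codes record. Its log2 values correlated with those of the other FA libraries at 0.744 to 0.753 and with the O3 libraries at 0.809 to 0.828, whereas the other libraries correlated at 0.919 to 0.949 within an exposure and at 0.856 to 0.908 between exposures. These correlations run across miRNAs of the same libraries and describe them only. FA replicate 3 was more than 2-fold above all 5 other libraries for 73 of 440 tested miRNAs and more than 2-fold below them for 51, against at most 9 above and 22 below for any other library.

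The lists of cell type markers showed how FA replicate 3 differed. The 14 miRNAs of the myeloid list took 31.4% and 24.8% of the reads in FA replicates 1 and 2, 4.53% in FA replicate 3, and 21.1%, 22.3% and 12.2% in the O3 libraries. Most of these reads were miR-21a-5p and miR-146b-5p (296078 and 126448 reads in FA replicate 1, 30916 and 2689 in FA replicate 3). Of the 13 members tested, FA replicate 3 was below both other FA libraries in 9 and above both in 3. miR-146a-5p had 477, 666 and 3522 reads in FA replicates 1, 2 and 3, and miR-155-5p had 214, 277 and 1113. The 20 epithelial miRNAs took 0.282% and 0.356% in FA replicates 1 and 2, 3.34% in FA replicate 3, and 2.98%, 3.85% and 2.98% after O3. The 9 mesenchymal miRNAs took 0.111% and 0.1% in FA replicates 1 and 2, 2.7% in FA replicate 3, and 0.305% to 0.514% after O3.

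Single miRNAs of other cell types stood out in FA replicate 3 (normalized values are given in the order of replicates 1, 2 and 3). Endothelial miR-126a-3p read 15.2, 11.1 and 9375 after FA and 142, 81.4 and 118 after O3, lymphocyte miR-150-5p read 163, 137 and 8426 after FA and 134, 95.2 and 142 after O3, and muscle miR-1a-3p read 21.3, 23.8 and 5294 after FA and 49.1, 321 and 41.1 after O3. The liver miRNA miR-122-5p read 20.3, 38.7 and 2676 after FA and 84.7, 66.4 and 30.3 after O3. In each of these 4, FA replicate 3 was above every other library. The miRNAs listed at 0 in FA replicate 3 and present in all others included, as those with the largest gaps, myeloid miR-511-5p (392, 384 and 0 after FA and 182.9, 237 and 145 after O3), miR-1298-3p (375, 288 and 0 after FA and 285, 282 and 185 after O3) and miR-1264-5p (296, 153 and 0 after FA and 224, 198 and 115 after O3). The part that these marker shares have in the differences between O3 and FA was not tested. In bulk libraries, fewer cells of a type and less RNA per cell cannot be told apart.

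**Figure D1:**
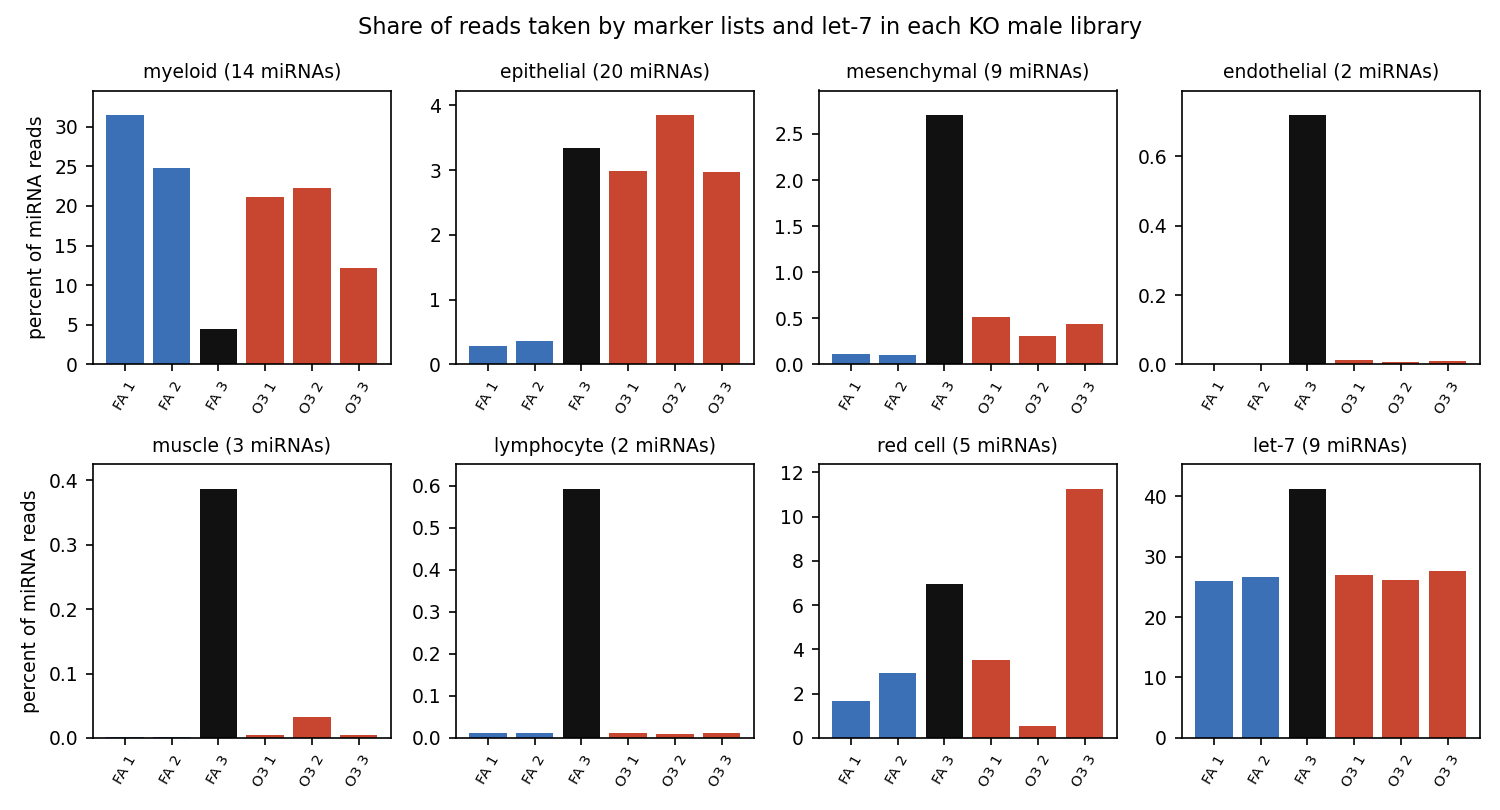
Percent of miRNA reads taken by 7 lists of cell type markers and by the let-7 family in each of the 6 KO male libraries, with FA replicates 1 and 2 in blue, FA replicate 3 in black and O3 in red, and a separate vertical scale from 0 in each panel. The epithelial share was 0.282% and 0.356% in FA replicates 1 and 2 and between 2.98% and 3.85% in the other 4 libraries, and the myeloid share was lowest in FA replicate 3, at 4.53%.

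With all 6 libraries, 4 miRNAs rose after O3 and none fell at an adjusted p under 0.1 (limma, Benjamini-Hochberg), which is 0.909% of the 440 tested, with 32 (7.27%) at an unadjusted p under 0.05. Changes are given as log2 fold changes, O3 minus FA, of the value plus 1. miR-6538 read 104, 92.2 and 285 after FA and 5392, 5594 and 7213 after O3 (log2 fold change 5.42, SE 0.52, adjusted p = 0.00703, limma). The O3 libraries were far above all FA libraries, and FA replicate 3 was the highest of the FA libraries. miR-2137 read 79.2, 115 and 321 after FA and 3240.4, 3244 and 2658 after O3 (log2 fold change 4.40, SE 0.57, adjusted p = 0.0257, limma). Its 3 O3 libraries lay within a narrow range and above every FA library.

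miR-34b-3p, made in multiciliated epithelium, read 232, 472 and 1292 after FA and 6132, 8131 and 5674 after O3 (log2 fold change 3.65, SE 0.64, adjusted p = 0.0756, limma). For miR-5126, the libraries read 373, 529 and 334 after FA and 1739.6, 1778 and 2915 after O3 (log2 fold change 2.36, SE 0.41, adjusted p = 0.0756, limma). It was the one of the 4 for which FA replicate 3 did not exceed both other FA libraries. Without O3 replicate 3 no miRNA was called by limma (24 at an unadjusted p under 0.05), and without FA replicate 3 the number rose to 86. On the recovered reads edgeR called 2 (0.455%), both higher, and DESeq2 called 15 (3.41%), of which 12 were higher (2.73%) and 3 lower (0.682%). The groups did not overlap for 34 miRNAs higher after O3 (7.73% of those tested) and 22 lower (5%).

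Without FA replicate 3, 86 of 479 tested miRNAs (18%) passed the same limma test. 66 were higher after O3 (13.8%) and 20 were lower (4.18%), and 115 (24%) had an unadjusted p under 0.05. The log2 fold changes of the 66 ran from 0.78 to 6.81 with a median of 2.90, against a median of -0.05 over all tested miRNAs. edgeR called 78 on the recovered reads (16.3%), 62 higher (12.9%) and 16 lower (3.34%), and 77 of them were among the 86. DESeq2 called 96 (20%), 70 higher (14.6%) and 26 lower (5.43%), and 83 of them were among the 86. With values scaled to the total reads of each library, 67 miRNAs were higher and 1 was lower, and this scaling moved the median of all tested miRNAs from -0.05 to 0.16. The higher calls made up 76.7% of all calls with the deposited scaling and 98.5% with scaling to total reads. Leaving out FA replicate 2 as well lowered the count from 86 to 50, with 49 higher and 1 lower.

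**Figure D2:**
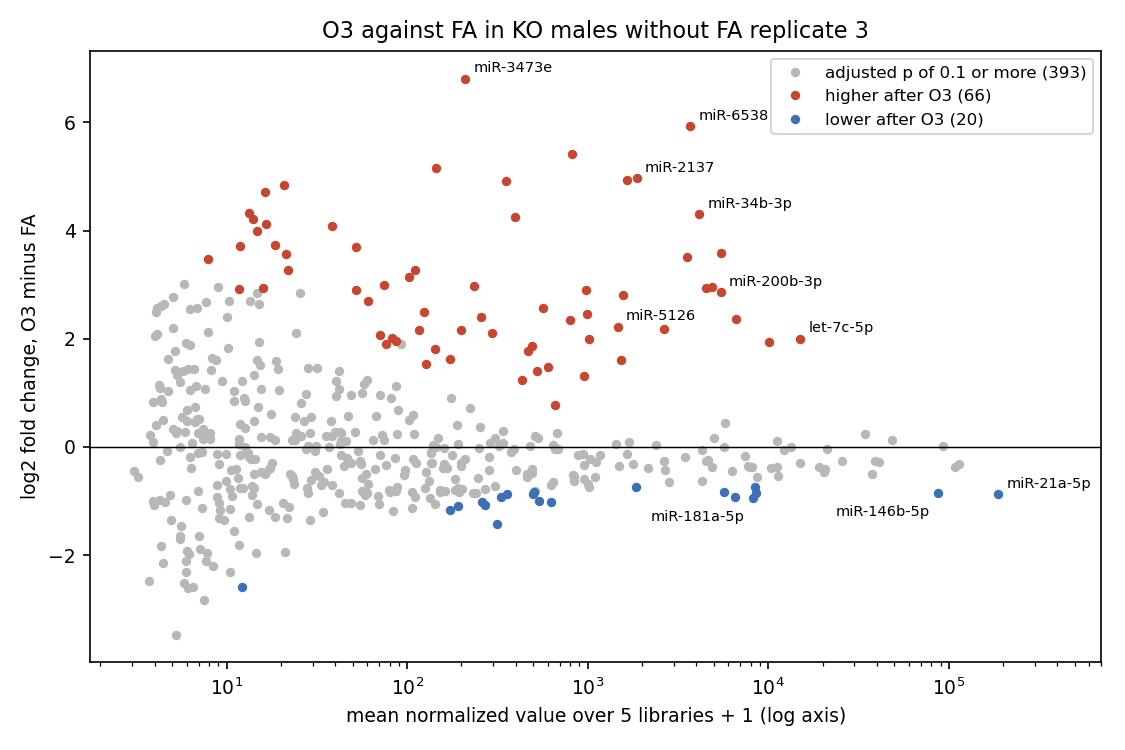
Log2 fold change of O3 over FA against the mean normalized value plus 1 (log axis) for the 479 miRNAs tested without FA replicate 3, one point each. The 66 miRNAs in red were higher and the 20 in blue lower at an adjusted p under 0.1, and the lower ones changed by less than the higher ones, with a median log2 fold change of -0.92 against 2.90.

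The largest group among the higher miRNAs was the epithelial list, of which 16 of 19 tested members rose, 0 fell and 3 did not pass, with a median log2 fold change of 2.86, beside 13.8% of all tested miRNAs called higher. The list was drawn up with earlier results of these data known and its count is a description. miR-34b and miR-34c, from neighbouring hairpins on chromosome 9, rose in both arms. miR-34c-5p read 92.5, 77.3 and 1275 after FA and 2817, 3329 and 1914 after O3 (without FA replicate 3, log2 fold change 4.94, SE 0.30, adjusted p = 8.01e-08, limma). miR-34c-3p read 38.6, 25.3 and 509 after FA and 647, 848 and 414 after O3 (log2 fold change 4.24, SE 0.40, adjusted p = 3.32e-06, limma), and miR-34b-3p changed by 4.31, SE 0.31, adjusted p = 3.45e-07 in the same fit. With FA replicate 3 included, the exposures still did not overlap for miR-34c-5p and did for miR-34c-3p. miR-34b-5p read 0, 0 and 17.9 after FA and 19.8, 30.1 and 27 after O3, which without FA replicate 3 is at least 9.71-fold higher against a limit of 3 reads per FA library, while FA replicate 3 lay just under the lowest O3 library. miR-449a-5p, which shares the seed of miR-34b-5p and is also made in multiciliated cells, read 49.8, 57.2 and 142 after FA and 156, 302 and 147 after O3 (log2 fold change 1.82, SE 0.44, adjusted p = 0.0112, limma).

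All 5 main arms of the miR-200 family, which keep epithelial cells from a mesenchymal state, rose in this fit. miR-200b-3p read 1146, 1142 and 13659.9 after FA and 7801, 9049.7 and 8124 after O3 (log2 fold change 2.86, SE 0.22, adjusted p = 7.18e-07, limma). miR-200c-3p read 768, 1038 and 9701 after FA and 5551, 7468 and 7766 after O3 (log2 fold change 2.94, SE 0.25, adjusted p = 1.51e-06, limma). miR-200a-3p read 367, 311 and 3450.4 after FA and 2465, 2668 and 2039 after O3 (log2 fold change 2.81, SE 0.25, adjusted p = 2.45e-06, limma). In all 3, FA replicates 1 and 2 were close together and low, while FA replicate 3 was above every O3 library. miR-429-3p changed by 2.89 and miR-141-3p by 3.27, and the lesser arms miR-200b-5p and miR-200a-5p by 2.97 and 1.96. miR-375-3p, of endocrine and secretory epithelium, read 366, 629.6 and 9404 after FA and 4894, 7044 and 4731 after O3 (log2 fold change 3.51, SE 0.29, adjusted p = 1.22e-06, limma). miR-182-5p, miR-183-5p and miR-203-3p rose by 2.45, 2.35 and 1.54, and the members that did not pass included miR-205-5p, at 0.90, SE 0.41, adjusted p = 0.199 (limma). With all 6 libraries the epithelial list had 1 call and a median of 1.79, and FA replicate 3 was above both other FA libraries for all 19. In the fit with 6 libraries miR-203-3p turned to a log2 fold change of -0.04.

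**Figure D3:**
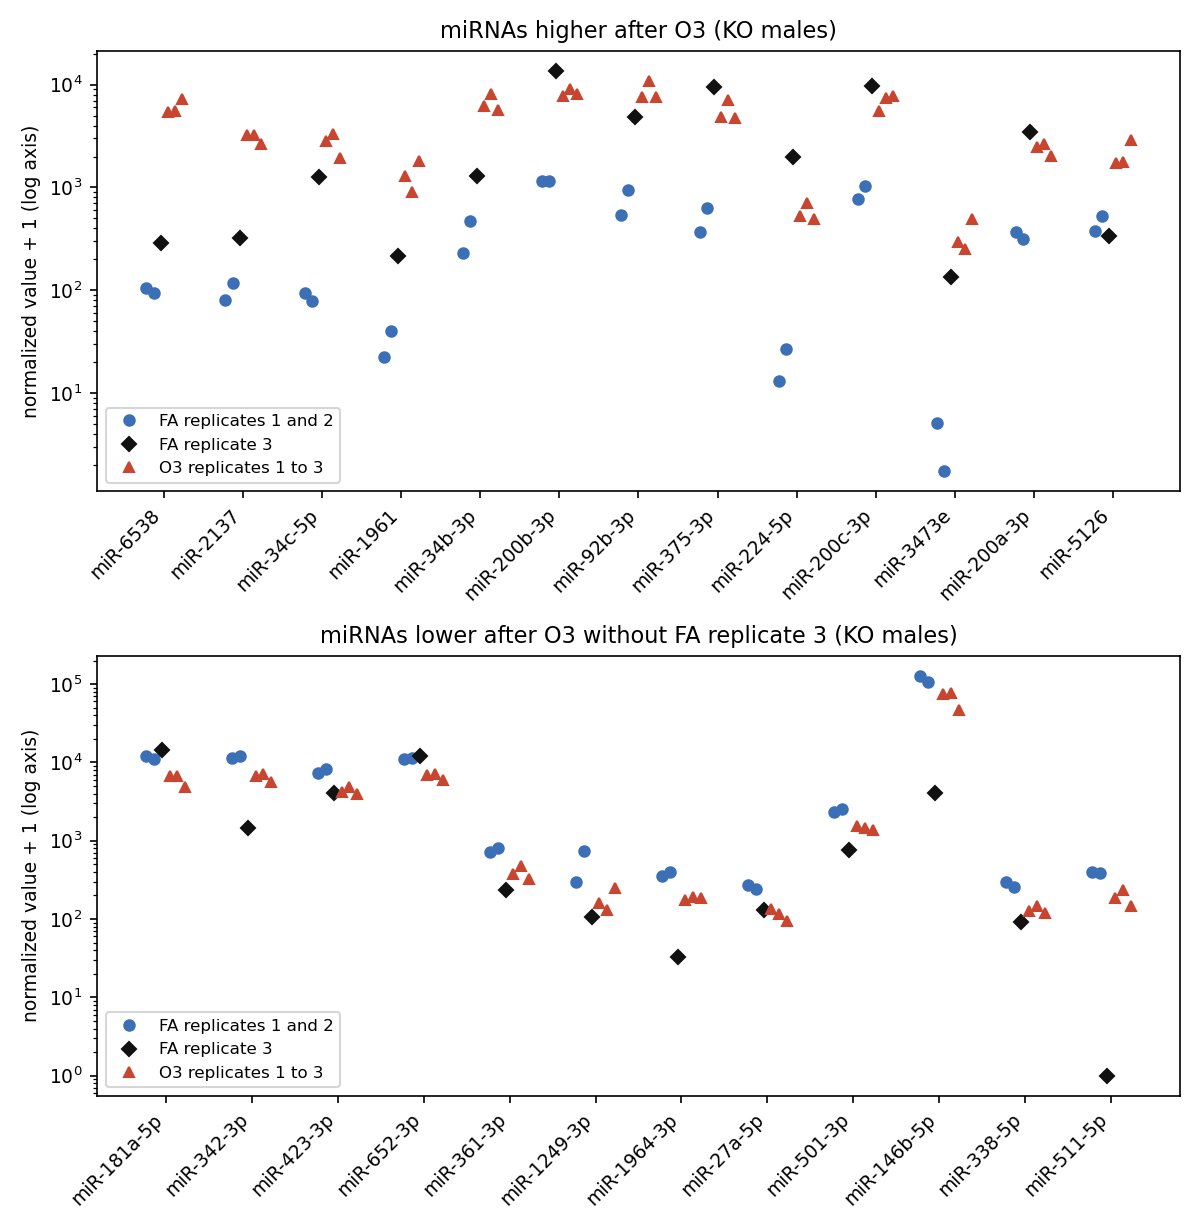
Normalized value plus 1 (log axis) in each KO male library for the named miRNAs that were higher (top) and lower (bottom) after O3, with FA replicates 1 and 2 as blue circles, FA replicate 3 as a black diamond and O3 as red triangles. For miR-6538 and miR-2137 the diamond lies closer to the circles than to the triangles, for miR-200b-3p and miR-224-5p it lies above the triangles, and for miR-511-5p it lies at 0.

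A second group was formed by miRNAs whose annotation is noncanonical or that resemble repeats, of which 11 of 34 tested members rose and 0 fell (median log2 fold change 0.82), beside 13.8% of all tested miRNAs called higher. This list too was drawn up with earlier results of these data known, and its count is a description. miR-6538, miR-2137 and miR-5126 belong to it, with log2 fold changes of 5.93, 4.97 and 2.23 without FA replicate 3. miR-3473e read 4.06, 0.743 and 134 after FA and 295, 252 and 493 after O3 (log2 fold change 6.81, SE 0.60, adjusted p = 1.97e-06, limma), the largest log2 fold change among the 86, with 4 reads and 1 read behind the values of FA replicates 1 and 2. The sequence of miR-3473b occurs exactly in 343 other annotated genes and that of miR-3470b in 546, so reads counted for them could come from elsewhere. Of the 53 higher miRNAs found in RefSeq, 4 (miR-3470b, miR-3473b, miR-706 and miR-692) matched at least 5 other genes exactly, against 5 of all 411. miR-706 and miR-692 were picked out after their values were seen.

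Other higher miRNAs belonged to neither group. miR-1961 read 21.3, 39.4 and 212 after FA and 1294, 909.7 and 1800.2 after O3 (log2 fold change 5.42, SE 0.38, adjusted p = 3.45e-07, limma). It is annotated as 17 bases. The first 13 are those of let-7g-5p and let-7i-5p and the first 11 those of let-7a, let-7b, let-7c and let-7f. The lines above show this for let-7g, let-7b and let-7c. Counting could split reads between miR-1961 and these let-7 members, so the count of miR-1961 is uncertain. miR-224-5p, from an intron of Gabre, read 12.2, 26 and 1957 after FA and 523, 704 and 496 after O3 (log2 fold change 4.91, SE 0.41, adjusted p = 1.42e-06, limma). miR-92b-3p read 535, 936 and 4886 after FA and 7633, 10787 and 7553 after O3 (log2 fold change 3.59, SE 0.28, adjusted p = 7.96e-07, limma). Its seed is that of miR-92a-3p, which read 12226, 13686 and 43738 after FA and 11518, 9056 and 20686 after O3 (log2 fold change -0.0015, SE 0.31, adjusted p = 0.998, limma). The libraries of miR-92a-3p overlapped between the exposures, while those of miR-92b-3p did not.

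Within the let-7 family, 2 of 9 tested members rose (median log2 fold change -0.26, beside 13.8% of all tested miRNAs called higher), and let-7b and 1 of the 2 loci of let-7c lie next to each other in Lncppara on chromosome 15. let-7c-5p read 4226, 6230.2 and 138302 after FA and 16444, 16876 and 31224 after O3 (log2 fold change 2.00, SE 0.30, adjusted p = 3.36e-04, limma). let-7b-5p read 1189, 2808 and 57390.2 after FA and 7476, 8101 and 13694 after O3 (log2 fold change 2.36, SE 0.35, adjusted p = 3.36e-04, limma). FA replicate 3 held by far the highest value of both. let-7a-5p, among the most abundant miRNAs of these libraries, read 121120, 137707 and 144948 after FA and 98975, 98974 and 114934 after O3 (log2 fold change -0.31, SE 0.23, adjusted p = 0.431, limma). In the miR-30 family 2 of 11 rose, both arms of miR-30a, and in the miR-125/99/100 families 2 of 9, miR-125b-5p and miR-99a-5p, counts near the 13.8% over all tested. 3 of 9 mesenchymal miRNAs rose, miR-143-3p (2.17, SE 0.28, adjusted p = 9.46e-05, limma), miR-145a-5p and miR-199b-3p, as did the 1 tested endothelial miRNA, miR-126a-3p. FA replicate 3 was above every other library for all 9 mesenchymal miRNAs and for miR-126a-3p. With all 6 libraries 0 of them were called, and the median change of the mesenchymal list was -0.38. In that fit miR-143-3p, miR-145a-5p and miR-199b-3p changed by 0.38, 1.51 and 0.31, and miR-126a-3p turned to -0.13. No member of the miR-17/92 clusters (15 tested), the X-linked miR-503 cluster (12), miR-15/16 (8), miR-29 (7), or the red cell (5), muscle (2) and lymphocyte (2) lists was called. The red cell miRNA miR-486b-5p read 22664, 38237 and 99018 after FA and 40044, 6141 and 135454 after O3, a spread within each exposure wider than the difference between them.

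20 miRNAs fell without FA replicate 3, by a median log2 fold change of -0.92. These calls depended on the scaling and on single libraries, since 1 lower call was left with total-read scaling, 4 without FA replicate 1, 1 without FA replicate 2 and 2 without O3 replicate 1. The myeloid list had 3 of 13 members lower and 0 higher, with a median log2 fold change of -0.80, beside 4.18% of all tested miRNAs called lower. With all 6 libraries 0 were called, the median was 0.07, and miR-146b-5p and miR-511-5p turned to log2 fold changes of 0.77 and 1.80. miR-21a-5p, an abundant miRNA induced in inflammation, read 300816, 209202 and 46139 after FA and 161500, 168244 and 94507 after O3 (log2 fold change -0.87, SE 0.30, adjusted p = 0.0746, limma). miR-146b-5p, which dampens signalling from Toll-like receptors, read 128472, 106670 and 4013 after FA and 75620.3, 77010.3 and 46392 after O3 (log2 fold change -0.86, SE 0.27, adjusted p = 0.0503, limma). The third was miR-511-5p, from the mannose receptor gene Mrc1 of macrophages (-1.07, SE 0.34, adjusted p = 0.0503, limma). In all 3, FA replicates 1 and 2 were above the O3 libraries and FA replicate 3 was below them. miR-223-3p, in contrast, did not pass, with 8501, 6369.9 and 2498 after FA and 5619.7, 6883 and 4029 after O3 (log2 fold change -0.45, SE 0.27, adjusted p = 0.315, limma).

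Outside the myeloid list, miR-181a-5p read 12143, 10935 and 14349 after FA and 6648, 6680.1 and 4819 after O3 (log2 fold change -0.95, SE 0.23, adjusted p = 0.0132, limma). miR-652-3p read 11085, 11297 and 12139 after FA and 6950.5, 7039 and 6033 after O3 (log2 fold change -0.75, SE 0.22, adjusted p = 0.0326, limma). These are the 2 lower miRNAs for which FA replicate 3 was also above every O3 library, and with all 6 libraries their adjusted p was 0.332 and 0.5 (limma). miR-342-3p, from an intron of Evl, read 11395, 11968 and 1469 after FA and 6648, 7133 and 5642 after O3 (log2 fold change -0.86, SE 0.22, adjusted p = 0.0172, limma), and here FA replicate 3 was the lowest library. miR-423 and miR-361 were lower in both arms, with log2 fold changes of -0.84 and -0.92 for the 3p and 5p arms of miR-423 and of -0.99 and -0.83 for those of miR-361. 1 of 7 members of the miR-181 family (miR-181a-5p) and 1 of 11 of miR-23/24/27 (miR-27a-5p, -1.17) fell, beside 4.18% of all tested miRNAs, and 0 rose in either. The list of miRNAs of stress and inflammation had 2 higher members, miR-31-5p (2.90) and miR-221-3p (0.78), and 2 lower, miR-21a-5p and miR-146b-5p, of 20 tested. Over all tested miRNAs 13.8% were called higher and 4.18% lower, and the 2 lower members are also in the myeloid list. With all 6 libraries miR-221-3p turned to a log2 fold change of -0.06.

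FA replicate 3 lay on differing sides of the O3 libraries for these miRNAs. For the 66 higher miRNAs it was above every O3 library in 34, within their range in 9 and below all of them in 23, and it was above both other FA libraries in 61. For the 20 lower miRNAs it was below every O3 library in 14 and below both other FA libraries in 18. With it included, 62 of the 66 still had a higher mean log2 value after O3, and 5 of the 19 lower miRNAs tested with 6 libraries turned to a higher one. Over all 479 tested, it was above both other FA libraries in 215 and between them in 81. None of the 66 overlapped between the exposures with 5 libraries, and 23 did not with 6, beside 22.5% and 7.73% of all tested miRNAs in that direction.

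**Figure D4:**
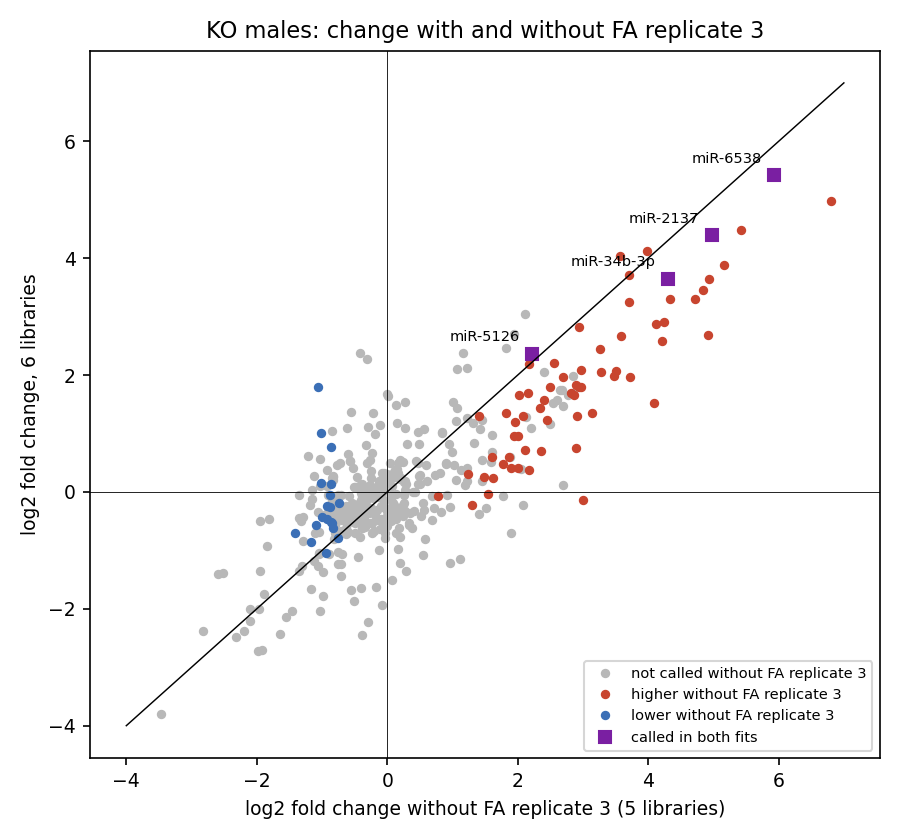
Log2 fold change of O3 over FA with all 6 libraries (vertical) against that without FA replicate 3 (horizontal) for miRNAs tested in both, with the line of equal change drawn. The 4 miRNAs called in both fits (purple squares) lie near the line, and most of the red points, which were called higher only without FA replicate 3, lie below it.

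Both arms of a hairpin come from one precursor, so the other arm is a second reading from the same transcript. Of the 66 higher miRNAs, 27 had a tested partner arm, which changed in the same direction in 24 and was itself called higher in 14. Of the 20 lower miRNAs, 16 had a tested partner, with the same direction in 14 and 4 called lower. The 14 partners called higher and the 4 called lower come from hairpins with both arms among the called miRNAs. Each such hairpin is counted from either arm, so its agreement in direction was given by the calls. The share over all tested arm pairs was not computed. By seed, 18 of the 53 higher miRNAs found in RefSeq shared theirs with another higher miRNA, in 8 seed groups, and none of the 19 lower ones did with another lower miRNA. Over all 411 tested miRNAs found there, 118 shared a seed with another, in 43 groups. That count draws partners from a larger set, so it is not a like baseline for the called sets. All tested members rose for the seed AAUACUG (miR-200b-3p, miR-200c-3p and miR-429-3p), AACACUG (miR-141-3p and miR-200a-3p), AUCACUA (miR-34b-3p and miR-34c-3p), AUCUUAC (miR-200a-5p and miR-200b-5p) and GGCUGGA (miR-3473b and miR-3473e). For the seed GAGGUAG of let-7, 3 of 11 did, and miR-34a-5p, with the seed of miR-34b-5p, read 1246, 1139 and 86.6 after FA and 812, 982 and 608 after O3 (log2 fold change -0.60, SE 0.28, adjusted p = 0.206, limma).

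The change was set beside that in KO females and co-ex males, each from a table normalized on its own. Of the 66 higher miRNAs, 57 were tested in KO females, where 56 had a higher mean after O3, beside 164 of all 312, and 29 were called (10% of all 319 tested there were called higher), with a median log2 fold change of 3.03 against 0.04 over all 312 shared. In co-ex males 53 were tested, 37 had a higher mean, beside 181 of all 308, and 0 were called by limma, with a median of 0.30 against 0.18 over 308 (0% of the 312 tested in that table were called, and 11, or 3.53%, had an unadjusted p under 0.05). miR-34b-3p changed by 4.25, SE 0.61, adjusted p = 0.00523 in KO females and by 0.53, SE 0.95, adjusted p = 0.944 in co-ex males (limma). miR-6538 changed by 5.32, SE 0.53, adjusted p = 0.00143 and by 3.24, SE 1.56, adjusted p = 0.944 (limma), and miR-200b-3p by 3.26, SE 0.48, adjusted p = 0.00523 and by 0.20, SE 0.76, adjusted p = 0.944 (limma). miR-5126 did not pass in either, at 0.66 in KO females and 1.26 in co-ex males.

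The differences between these changes were tested directly by limma. With all 6 libraries none passed, with 17 of 309 (5.5%) at an unadjusted p under 0.05 for KO males minus KO females and 6 of 305 (1.97%) for KO males minus co-ex males. Without FA replicate 3 none passed either, with 18 of 312 (5.77%) and 28 of 308 (9.09%). The smallest adjusted p was that of miR-224-5p, whose change was larger in KO males than in co-ex males by 3.92, SE 0.87, adjusted p = 0.146 (limma), and the same difference was 3.78, SE 1.40, adjusted p = 0.461 for miR-34b-3p and 2.66, SE 1.09, adjusted p = 0.513 for miR-200b-3p. KO males and KO females differed by 0.06, SE 0.82, adjusted p = 0.97 for miR-34b-3p and by -0.40, SE 0.59, adjusted p = 0.922 for miR-200b-3p (limma). Of the 20 lower miRNAs, 16 had a lower mean after O3 in KO females, where 2 were called (3.13% of all tested there were called lower), beside 148 of all 312 with a lower mean, and 13 of 19 in co-ex males, where 0 were called, beside 127 of all 308. miR-1249-3p fell in KO females by 2.54 on the log2 scale (adjusted p = 0.0137, limma) and read 294, 738 and 106 after FA and 159, 130.3 and 252 after O3 in KO males (without FA replicate 3, -1.42, SE 0.43, adjusted p = 0.0407, limma).

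**Figure D5:**
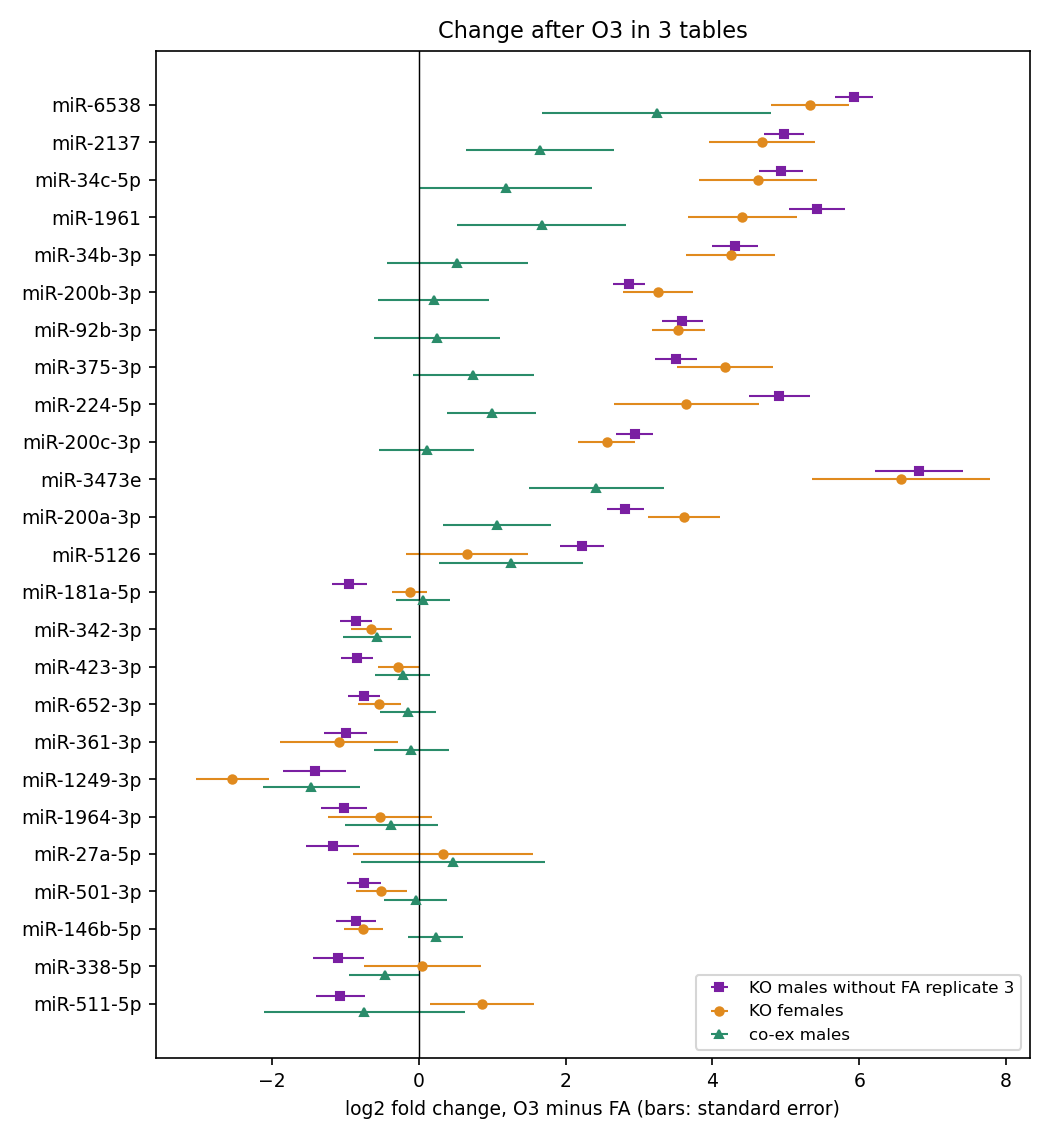
Log2 fold change of O3 over FA with its standard error for the named miRNAs in KO males without FA replicate 3 (5 libraries), KO females (6 libraries) and co-ex males (8 libraries), each from its own table. For miR-34b-3p the KO values were 4.31 and 4.25 and the co-ex value 0.53, and no difference between tables passed the test.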

How the data were processed

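Small RNA reads from lavaged AM were, per the labels and the methods of the study, filtered with CASAVA, trimmed with the FASTX-Toolkit, and aligned and counted with Chimira by the authors, who named edgeR and TCC for their comparisons. The miRNA release and genome build were not given in the sources used here. The deposited values are a signal, reads divided by a size factor for each library, normalized within each table. Dividing each column by its smallest nonzero value gave whole numbers for 100% of values (tolerance 0.01). The deposited columns of mean level, fold change, p-value, q-value and rank from the authors were not used.

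O3 was compared with FA by limma 3.58.1 (R 4.3.3) on log2(value + 1) with a trended variance prior. A miRNA was tested if its value reached 5 in a number of libraries equal to the size of the smaller group. P-values were adjusted by Benjamini-Hochberg and called under 0.1. On the recovered reads, edgeR 4.0.16 (quasi-likelihood) called 2 miRNAs and DESeq2 1.42.0 called 15 with 6 libraries, and 78 and 96 without FA replicate 3. Differences between tables were limma contrasts of the 2 changes. Simulated data were used to test the scripts. Named are all miRNAs called with 6 libraries, the 12 higher and 12 lower with the smallest adjusted p without FA replicate 3, their other arms, the 4 most abundant and all called members of each list, the 6 most abundant miRNAs, and the 12 furthest above and 3 furthest below the rest in FA replicate 3. The members, lists and rules were chosen with earlier results of these data known. Sequences and coordinates are from RefSeq (GRCm38.p6) and host genes from GENCODE M21. Figures were drawn with matplotlib 3.10.9.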

Additional observations from a re-analysis of the deposited data

How the results depend on the processing

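With 6 libraries, 4 miRNAs were called, and the count was 2 at a threshold of 0.05, 2 with edgeR, 15 with DESeq2, and 0 to 86 when each library was left out in turn (0 without O3 replicate 3, 86 without FA replicate 3, and 1 or 2 without any other library). Without FA replicate 3, the count of 86 became 50 to 95 when a further library was left out (50 without FA replicate 2), and lay between 68 and 96 under total-read scaling, no filter, a pseudocount of 0.1, a threshold of 0.05, edgeR, DESeq2 and the block. A fit with 1 FA library takes its spread from the O3 libraries alone and assumes that the lone library varies like them. With the replicate number as a block, 1 miRNA was called with 6 libraries (miR-6538) and 79 without FA replicate 3. The numbers were not shown to pair the libraries, since the deviations of same-numbered FA and O3 libraries correlated at 0.04, 0.05 and 0.09. No difference of the change between tables passed with total-read scaling or with any single library left out, starting from all 6 KO male libraries. The other settings were not run for these differences. For the named miRNAs of each fit, no alternative to that fit turned a direction, but putting FA replicate 3 back did: 62 of the 66 higher miRNAs stayed higher, and 5 of 19 tested lower ones became higher. Counted over named miRNAs and settings together, a call was kept in 21 combinations and lost in 7 with 6 libraries, and kept in 154 and lost in 14 without FA replicate 3. When a library was left out, it was kept in 9 and lost in 15 with 6 libraries, and kept in 89 and lost in 31 without FA replicate 3. The causes were not tested. Intervals and limits from reads cover counting error only, and the number of libraries limits what can be called.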
